A study of Mus musculus with 3 samples.

Results

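The creatine kinase system was described through 9 genes of the 39179 in the deposited table. They were taken by symbol: the creatine kinases Ckm, Ckb, Ckmt1 and Ckmt2, the creatine synthesis genes Gatm and Gamt, the creatine transporter gene Slc6a8, the adenylate kinase gene Ak1 and the myoglobin gene Mb. All 9 were found once each. The selection rule uses symbols and no measured value, although the set was proposed with earlier results of these data known. The RNA came from one mouse embryonic stem cell line with an eGFP reporter for Cntn2, a contactin gene that Purkinje fibres of the heart express, and with mCherry, delivered by lentivirus, under the promoter of the heart muscle gene Myh6. Cultures of that line received sodium nitroprusside, which releases nitric oxide, from day 4 of differentiation and were sorted by flow cytometry after 25 days. GFP cells were positive for eGFP and dim for mCherry, MHC cells were positive for mCherry, and NEG cells lacked both reporters. All 3 populations came from treated cultures, so no untreated cells enter the comparisons. Each population has 1 library, so differences have no replicate check and carry no p-value.

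Creatine kinases move a phosphate group between ATP and creatine. In muscle and brain, a mitochondrial form charges creatine where ATP is made and a cytosolic form returns the phosphate to ADP where ATP is spent. Cells obtain creatine by making it from arginine, glycine and a methyl group, or by importing it. Adenylate kinase buffers the same ATP pool by a different reaction, and myoglobin stores oxygen in heart and slow skeletal muscle.

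Values are read counts per gene divided by 1 size factor per library, as the authors deposited them. Every value was a whole multiple of what 1 read is worth, which gave 52109065 (GFP), 52826956 (MHC) and 47289405 (NEG) reads over all genes. Folds are ratios of values, given with exact 95% intervals that cover counting error only. A gene is called higher or lower when the log2 ratio of (value + 1) reaches 2-fold and the higher library has a value of 20 or more, a limit on size alone. Marker genes, in lists chosen with earlier results of these data known, were read beside the labels. All 10 cardiomyocyte markers were highest in MHC, with a summed value of 10923 (GFP), 77267 (MHC) and 6594 (NEG). All 8 epicardial and mesothelial markers, which include Wt1 and Upk3b, were highest in GFP, with a summed value of 159003 (GFP), 5973 (MHC) and 5769 (NEG). The epicardial and mesothelial list does not check the sort on the Cntn2 reporter, and Cntn2 itself was not among the genes read. No marker of either list was at 0 in any library. In RNA from pooled cells, fewer cells of a type and less RNA per cell cannot be told apart.

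Promoter sequences are shown first for the members that differed by 10-fold or more between GFP and MHC: Ckm, Ckmt2 and Mb, which were higher in MHC, and Ckmt1 and Gatm, which were higher in GFP. Windows of 250 bases before and 50 after an annotated start were taken from RefSeq (GRCm38.p6) and were found for 8 of the 9 members, all but Slc6a8. In capitals are matches, on either strand, to any of 6 motifs: CAGCTG (an E-box bound by muscle basic helix-loop-helix factors), the MEF2 core (CTA, any 4 bases, TAG), the CArG box of serum response factor, AAGGTCA (a site of oestrogen-related receptors), TATAAA and CCAAT. The Ckm window is chr7:19410844-19411143 on the plus strand and the Ckmt2 window is chr13:91876836-91877135 on the minus strand. Of 3 Mb windows, the one printed is chr15:77022678-77022977 on the minus strand.
Ckm: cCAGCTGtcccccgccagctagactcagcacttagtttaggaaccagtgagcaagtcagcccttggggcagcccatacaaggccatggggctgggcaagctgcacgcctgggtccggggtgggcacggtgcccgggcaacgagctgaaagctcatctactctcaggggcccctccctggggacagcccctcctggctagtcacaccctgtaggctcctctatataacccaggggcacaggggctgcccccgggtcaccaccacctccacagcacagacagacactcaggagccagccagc
Ckmt2: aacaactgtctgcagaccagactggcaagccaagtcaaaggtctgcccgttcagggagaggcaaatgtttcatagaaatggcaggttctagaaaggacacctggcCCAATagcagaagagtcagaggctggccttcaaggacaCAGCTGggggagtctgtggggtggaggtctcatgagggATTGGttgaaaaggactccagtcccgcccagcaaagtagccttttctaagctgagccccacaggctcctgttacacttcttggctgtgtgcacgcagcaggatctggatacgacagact
Mb: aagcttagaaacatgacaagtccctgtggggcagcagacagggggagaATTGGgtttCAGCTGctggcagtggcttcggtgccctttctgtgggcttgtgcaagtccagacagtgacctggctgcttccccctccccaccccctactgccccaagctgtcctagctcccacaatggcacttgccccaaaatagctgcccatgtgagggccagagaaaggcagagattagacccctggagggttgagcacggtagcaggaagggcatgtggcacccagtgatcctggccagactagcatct

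Of the genes higher in GFP, the printed Ckmt1 window is chr2:121357526-121357825 on the plus strand and the Gatm window is chr2:122611228-122611527 on the minus strand. The Gamt window, chr10:80260963-80261262 on the minus strand, held none of the 6 motifs and is not printed.
Ckmt1: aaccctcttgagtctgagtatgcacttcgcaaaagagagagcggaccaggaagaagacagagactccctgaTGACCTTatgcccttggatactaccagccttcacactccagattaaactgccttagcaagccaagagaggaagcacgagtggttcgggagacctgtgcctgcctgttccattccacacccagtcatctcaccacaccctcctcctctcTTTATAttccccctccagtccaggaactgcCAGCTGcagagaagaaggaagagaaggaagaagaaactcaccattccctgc
Gatm: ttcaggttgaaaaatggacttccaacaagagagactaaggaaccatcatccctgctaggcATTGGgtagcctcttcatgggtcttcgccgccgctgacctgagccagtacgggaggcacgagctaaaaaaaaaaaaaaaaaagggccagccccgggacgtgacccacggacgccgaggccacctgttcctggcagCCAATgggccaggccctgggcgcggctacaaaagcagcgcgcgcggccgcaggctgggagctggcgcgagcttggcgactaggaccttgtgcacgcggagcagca

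CAGCTG occurred in the printed windows of Ckm, Ckmt2 and Mb, starting 249, 107 and 193 bases before the start. It also occurred in that of Ckmt1, where it starts 1 base before the start, and in 2 windows of Ak1, the member that varied least. In all it was in 7 of the 14 windows of the members and in 16.3% of all 32851 promoter windows. The 14 windows belong to 8 genes. Those of Mb starting at 77022678 and 77022738 overlap and hold the same CAGCTG site and the same CCAAT site, counted in each. The CArG box was in none of the 14 windows of the members and in 1.63% of all windows. The MEF2 core was found in the Ckb window alone, where it overlaps a TATAAA match, and in 3.69% of all windows. AAGGTCA was in 1 Ckmt1 and 1 Ak1 window and in 4.72% of all windows. TATAAA was in 3 of the 14 windows and in 13.6% of all, and CCAAT in 7 of the 14 and in 37.4% of all. These matches are letters in short windows and say nothing about binding.

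GFP was set against MHC to ask how Cntn2:eGFP-positive cells differ from mCherry-positive cells. Of the 9 members, 3 were higher in GFP (Ckmt1, Gatm and Gamt), 4 were lower (Ckm, Ckmt2, Mb and Slc6a8) and 2 lay within 2-fold (Ckb and Ak1). Over all 20879 genes with a value of 20 or more in either library, 15.6% were called higher and 16.4% lower. Either call was made for 7 of the 9 members and for 31.9% of all genes, and the members were picked with earlier results known. GFP was also set against NEG, cells without either reporter: 2 members were higher (Ckmt1 and Gatm), 2 were lower (Slc6a8 and Ckmt2) and 5 lay within 2-fold. There, 14.1% of all genes were called higher and 15.0% lower. MHC set against NEG had 3 higher members (Ckm, Ckmt2 and Mb) and 1 lower (Gamt), where 5.35% of all genes were called higher and 5.21% lower. These comparisons share libraries and are not independent of each other.

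**Figure D1:**
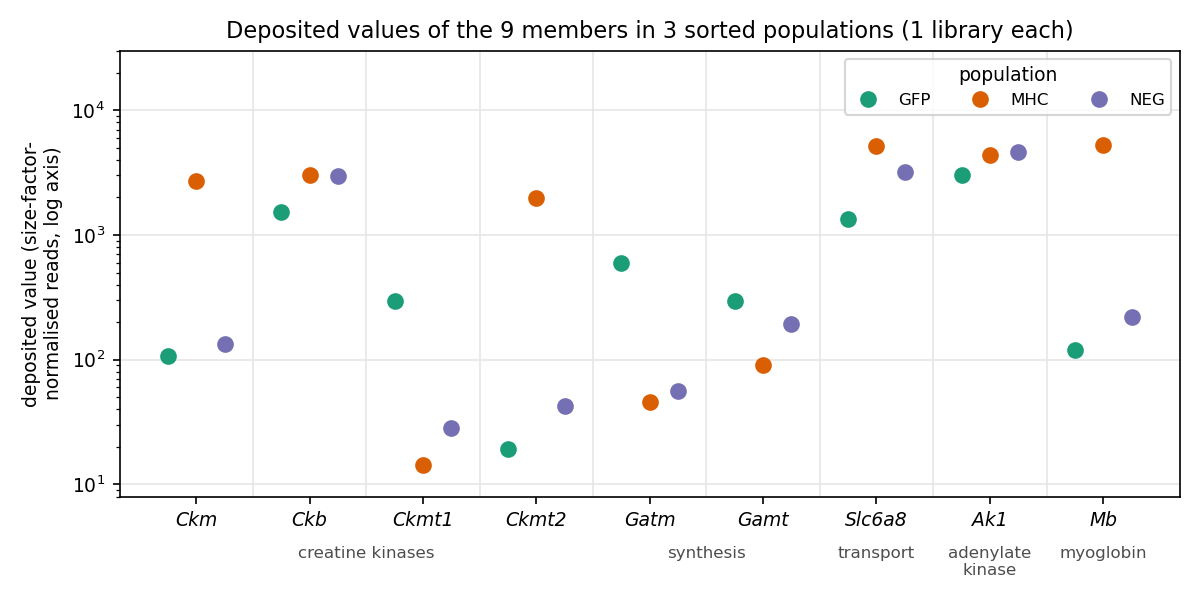
Deposited values of the 9 members (log axis), 1 point per library, with GFP, MHC and NEG from left to right within each gene and genes grouped by role. Ckm, Ckmt2 and Mb stand high in MHC alone, Ckmt1 and Gatm stand high in GFP alone, and Ckb and Ak1 are within 2-fold in every pair, Ckb no longer so against MHC under TMM scaling.

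Muscle creatine kinase was far higher in MHC cells than in the other populations. Ckm (ENSMUSG00000030399, chr7:19411094-19421583, mm10) encodes the cytosolic form of heart and skeletal muscle and had values of 107 (GFP), 2697.4 (MHC) and 133 (NEG). It stood high in MHC and at similar low levels in the other populations. GFP had 25.2-fold less Ckm than MHC (95% interval 21.0 to 30.6) and MHC 20.2-fold more than NEG (16.8 to 24.5). Between GFP and NEG its interval, 0.616 to 1.05 for GFP over NEG, included equality. The Ckm span holds the whole of A930016O22Rik, annotated on the opposite strand, which had values of 57.6 (GFP), 893 (MHC) and 40.7 (NEG). The labels do not say that strand was used in counting, so reads of the pair cannot be told apart, and 10.8% of the distinct 50-base stretches of Ckm transcripts also occur in that gene. With every read of A930016O22Rik taken off, Ckm was at 49.4 (GFP), 1804 (MHC) and 92.6 (NEG), and 36.5-fold lower in GFP than MHC. Of 10 skeletal muscle markers, Myod1 and Pax7 were at 0 in MHC, and the list summed to 13365 (GFP), 4467 (MHC) and 3597 (NEG). Its 7 measured genes went in both directions between GFP and MHC, 3 higher in GFP (the myosin genes Myh1, Myh2 and Myh4, which carry the sum) and 2 lower (Tnni2 and Tnnt3). Tnnt3, uncertain by overlap, was at 83.2 (GFP), 627 (MHC) and 408 (NEG), highest in MHC as Ckm was. No other measured marker of this list was highest in MHC. Tnni2 and Acta1 were highest in NEG, and Myh1, Myh2, Myh4 and Actn3 in GFP. The part of skeletal muscle genes in the Ckm values was not tested.

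Ckmt2 differed more between MHC and the other populations than any other member. It encodes the sarcomeric mitochondrial creatine kinase (ENSMUSG00000021622, chr13:91853387-91876885) and had values of 19.2 (GFP), 1975.2 (MHC) and 42.9 (NEG). Read numbers behind them were 21 (GFP), 1950 (MHC) and 38 (NEG). Ckmt2 was 103-fold (67.1 to 167) lower in GFP than MHC, and only 29 of 20879 genes had a lower ratio. It was 46.0-fold (33.4 to 65.2) higher in MHC than NEG, where 14 of 20572 genes had a higher ratio. GFP was also 2.24-fold (1.28 to 4.01) lower than NEG, a call lost under several of the settings tried and resting on few reads. The antisense gene 1700119I11Rik lies inside Ckmt2, with a value of 0 (GFP), 152 (MHC) and 1.13 (NEG), and taking its reads off moved the log2 ratio of GFP over MHC to -6.50.

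Ckmt1 ran the other way. It encodes the ubiquitous mitochondrial creatine kinase (ENSMUSG00000000308, chr2:121357714-121363737), known from brain and other non-muscle tissue, and had values of 294 (GFP), 14.2 (MHC) and 28.2 (NEG). GFP alone stood high, as its 322 reads compare with 14 in MHC and 25 in NEG. Ckmt1 was 20.8-fold (12.2 to 38.4) higher in GFP than MHC and 10.4-fold (6.93 to 16.3) higher in GFP than NEG. Only 154 of 20879 genes had a higher ratio of GFP over MHC. NEG was 1.99-fold higher than MHC with an interval, 0.996 to 4.14, that included equality. The Ckmt1 span shares 10 bases with Strc, which was at 6.40 (GFP), 9.12 (MHC) and 15.8 (NEG). With every Strc read taken off, an outer limit, Ckmt1 would be at 288 (GFP), 5.06 (MHC) and 12.4 (NEG). Markers of neurons summed over 7 genes to 223 (GFP), 297 (MHC) and 601 (NEG), with 368 of the NEG sum from Tubb3. Between GFP and MHC, 1 of the 7 was higher (Stmn2), 1 lower and 5 within 2-fold. Of 6 glial markers, which summed to 856 (GFP), 1749 (MHC) and 2686 (NEG), 5 were measured and 3 were higher in GFP than MHC. Among these, Gfap was at 105 (GFP), 23.3 (MHC) and 29.4 (NEG) and Aqp4 at 21.0 (GFP), 5.06 (MHC) and 4.52 (NEG), both highest in GFP as Ckmt1 was. The part of neural markers in the Ckmt1 values was not tested.

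Ckb was present at similar levels in MHC and NEG and lower in GFP. It encodes the brain-type cytosolic creatine kinase (ENSMUSG00000001270, chr12:111669355-111672338), which many non-muscle cells and the embryonic heart also use, and had values of 1528.3 (GFP), 3053.9 (MHC) and 2972.1 (NEG). Its ratio of MHC over NEG was 1.03 (0.975 to 1.08). GFP lay lower than MHC by 1.998-fold, just inside the 2-fold limit and past it under TMM scaling (log2 ratio -1.03), and lower than NEG by 1.94-fold (1.83 to 2.07). Of its distinct 50-base transcript stretches, 9.98% also occur in other annotated genes. One of these, the pseudogene Gm12892, had values of 541 (GFP), 1046 (MHC) and 1058 (NEG), so Ckb reads may be divided between copies.

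**Figure D2:**
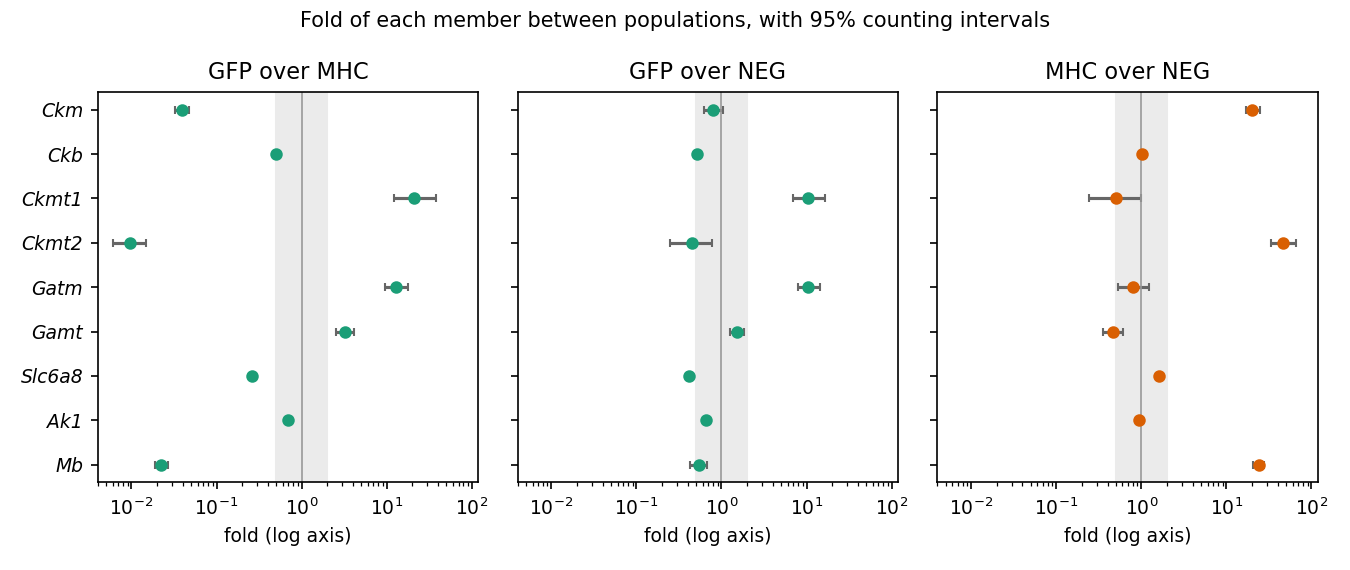
Fold of each member for GFP over MHC, GFP over NEG and MHC over NEG (log axis); bars are exact 95% counting intervals and the grey band spans 2-fold in either direction. In the first panel Ckmt1, Gatm and Gamt lie right of the band and Ckm, Ckmt2, Mb and Slc6a8 left of it.

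The makeup of the creatine kinase transcripts was compared within each library on values per kilobase of merged exon. On that scale the 4 genes summed to 734 (GFP), 4296 (MHC) and 1161 (NEG). Ckb made up 71.9% of the sum in GFP, 24.6% in MHC and 88.4% in NEG. Ckm, with the reads of A930016O22Rik left in, made up 10.3% (GFP), 44.4% (MHC) and 8.11% (NEG). Of the mitochondrial forms, Ckmt1 was 16.1% (GFP), 0.132% (MHC) and 0.975% (NEG), and Ckmt2 was 1.76% (GFP), 30.9% (MHC) and 2.49% (NEG). Both cytosolic and mitochondrial forms thus included the muscle gene as a large part in MHC, while GFP paired Ckb with Ckmt1.

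Within the mitochondrial pair, Ckmt2 was 9.87% (95% interval 6.27 to 14.6) in GFP, 99.6% (99.3 to 99.8) in MHC and 71.9% (60.0 to 81.5) in NEG. Within the cytosolic pair, Ckm was 12.5% (10.5 to 14.7) in GFP, 64.4% (63.2 to 65.6) in MHC and 8.40% (7.03 to 9.94) in NEG. The Ckm shares include the reads of A930016O22Rik. With every such read taken off, Ckm was at 49.4 (GFP), 1804 (MHC) and 92.6 (NEG), so its share would be lower in every library. The shares and their intervals were not recomputed for that case. All of these shares also depend on the length used. Over whole gene spans Ckmt2 was 28.0% (18.6 to 40.2) of its pair in NEG, so which mitochondrial gene leads in NEG is not settled; Ckmt1 led in GFP and Ckmt2 in MHC with each of the 3 lengths used. With the longest coding transcript Ckm was 3.62% of the pair in GFP, 32.2% in MHC and 2.35% in NEG. That transcript has 2742 bases against 1415 merged exon bases within the table's span of Ckm. Part of it thus lies outside the span, which lowers these Ckm shares. Whole gene spans also put Ckm below Ckb in MHC, but they include introns. Whether Ckm or Ckb leads in MHC is not settled by these values. The order of the libraries was the same with merged exons and with the longest transcript, both with A930016O22Rik reads left in.

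**Figure D3:**
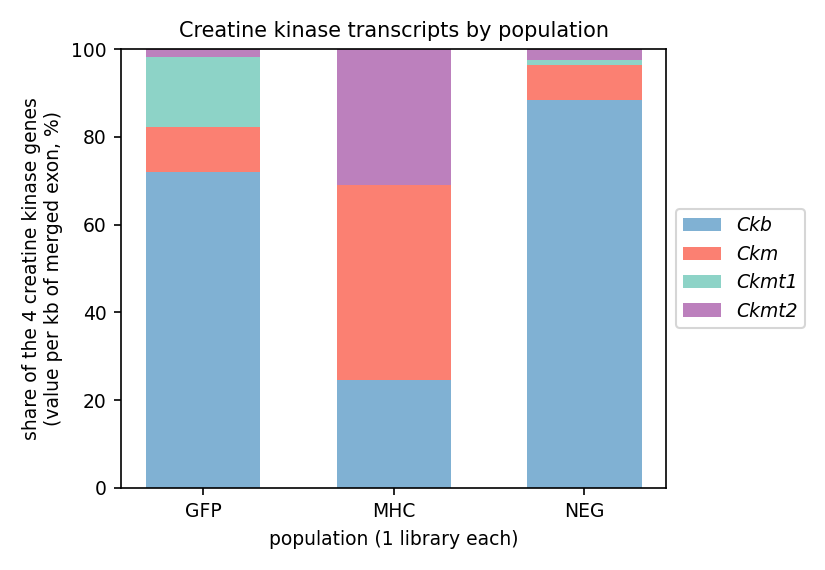
Share of each creatine kinase gene in the summed value per kilobase of merged exon, with 1 bar per population (GFP, MHC, NEG). Ckb fills 71.9% of the GFP bar, 24.6% of the MHC bar and 88.4% of the NEG bar, and the Ckm and Ckb shares shift when another transcript length is used. The Ckm part includes reads of A930016O22Rik.

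Myoglobin followed the muscle kinases. Mb (ENSMUSG00000018893, chr15:77015489-77050670) had values of 119 (GFP), 5291.4 (MHC) and 221 (NEG). It was 44.5-fold (37.4 to 53.4) lower in GFP than MHC and 23.9-fold (20.7 to 27.7) higher in MHC than NEG. The Mb span covers 48.0% of Apol6, which lies on the opposite strand with a value of 17.4 (GFP), 180 (MHC) and 312 (NEG). Reads of Apol6 could make up all of the Mb value in NEG but not those in GFP or MHC, where at least 101 and 5111 would remain. The order of Mb between GFP and NEG is therefore not known.

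Ckm, Ckmt2 and Mb were set beside 10 cardiomyocyte markers, since GFP cells were sorted as dim for the Myh6 reporter. GFP over NEG was above 1 for 8 of the 10 markers, from 0.558 for the calcium pump regulator gene Pln to 10.4 for the ventricular light chain gene Myl2. Of these markers, Pln and Actc1 are uncertain by overlap. GFP over NEG was 0.447 (0.249 to 0.782) for Ckmt2, and 0.802 for Ckm, whose interval included equality. For Ckm it would be 0.533 with every A930016O22Rik read taken off. The 0.537 of Mb carries no direction, because of Apol6. Against MHC, the markers were between 1.90-fold and 25.8-fold lower in GFP, and Mb and Ckmt2 were lower still. Ckm, at 25.2-fold (21.0 to 30.6), was near the upper end of that range. With A930016O22Rik reads taken off it was past that range, at 36.5-fold. The part of cardiomyocyte content in these differences was not tested.

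**Figure D4:**
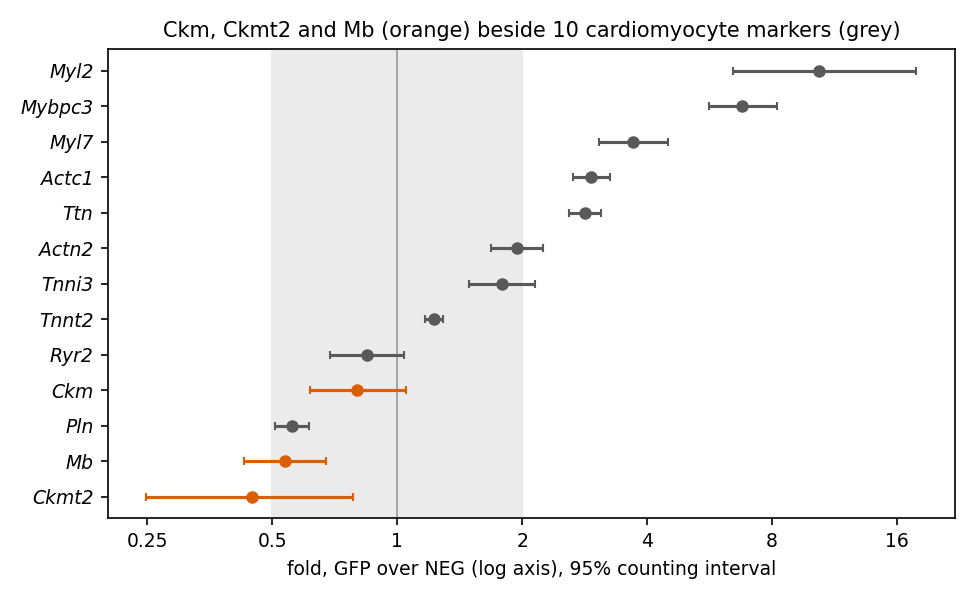
Fold of GFP over NEG (log axis) for Ckm, Ckmt2 and Mb (orange) and 10 cardiomyocyte markers (grey), with 95% counting intervals; the grey band spans 2-fold in either direction. Ckmt2 lies below 1 with its interval, and the interval of Ckm reaches 1.05. With A930016O22Rik reads taken off, which is not drawn, Ckm would be at 0.533. The order of Mb is not known because of Apol6, and 8 of the 10 markers lie above 1.

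Both genes of creatine synthesis were highest in GFP. Gatm encodes the first enzyme, which joins arginine and glycine (ENSMUSG00000027199, chr2:122594467-122611303), and had values of 593 (GFP), 45.6 (MHC) and 56.5 (NEG). It was 13.0-fold (9.61 to 18.0) higher in GFP than MHC and 10.5-fold (7.87 to 14.3) higher than in NEG, and MHC over NEG was 0.807 (0.527 to 1.23). Gamt encodes the second enzyme, which adds the methyl group (ENSMUSG00000020150, chr10:80258151-80261012), and had values of 293 (GFP), 90.1 (MHC) and 194 (NEG). All 3 libraries differed beyond counting error. Gamt was 3.25-fold (2.57 to 4.16) higher in GFP than MHC, 1.51-fold (1.25 to 1.83) higher in GFP than NEG, and 2.16-fold (1.66 to 2.82) lower in MHC than NEG. Neither gene overlaps another in the table, and neither shares a 50-base stretch with another gene. Per kilobase of merged exon, Gatm and Gamt were at 198 and 203 in GFP, at 15.2 and 62.4 in MHC, and at 18.8 and 135 in NEG. The 8 epicardial and mesothelial markers were highest in GFP as well. Their part in the differences of Gatm, Gamt and Ckmt1 was not tested.

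Creatine import was ordered the opposite way. Slc6a8, the creatine transporter gene (ENSMUSG00000019558, chrX:73673150-73682502), had values of 1346.4 (GFP), 5178.0 (MHC) and 3225.1 (NEG). It was 3.85-fold (3.63 to 4.08) lower in GFP than MHC and 2.40-fold (2.25 to 2.55) lower in GFP than NEG. MHC over NEG was 1.61 (1.53 to 1.68), within 2-fold. Per kilobase of merged exon, Slc6a8 was at 258 (GFP), 994 (MHC) and 619 (NEG), so it was above Gatm and Gamt in every library, by the least in GFP. Markers of other cells were also lower in GFP than MHC, 4 of 5 for smooth muscle, with sums of 15715 (GFP), 64692 (MHC) and 62602 (NEG), and 4 of 6 for fibroblasts, with sums of 1135494 (GFP), 4790967 (MHC) and 4890833 (NEG). No marker of these lists was at 0. Among them, Acta2 was 17.0-fold and Col1a1 6.38-fold lower in GFP than MHC, while the fibroblast markers Dcn and Pdgfra were higher in GFP. Their part in the differences of Slc6a8 and Ckb was not tested.

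Ak1 varied least of the 9 members over the 3 populations. It encodes the cytosolic adenylate kinase of muscle, brain and red cells (ENSMUSG00000026817, chr2:32621758-32646805) and had values of 3049.3 (GFP), 4347.4 (MHC) and 4654.1 (NEG). GFP was 1.43-fold (1.36 to 1.49) lower than MHC and 1.53-fold (1.46 to 1.60) lower than NEG, and MHC over NEG was 0.934 (0.895 to 0.975). The span of Ak1 in the table shares 211 bases with the endothelial gene Eng, which was at 192 (GFP), 1654.1 (MHC) and 1059.6 (NEG). With every Eng read taken off, an outer limit since 0.585% of the Eng span is shared, Ak1 would be at 2857 (GFP), 2693 (MHC) and 3595 (NEG). GFP over MHC would then be 1.06, so the lower level in GFP than MHC does not hold at that limit.

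Enzymes of arginine, glycine and methyl donor metabolism, both makers and users of these compounds, were then read as a list of 14 genes. Of these, 13 had a mean value of 10 or more, and counts over the list give no direction of supply. Between GFP and MHC, 5 were higher, 3 lower and 5 within 2-fold (15.6% and 16.4% of all genes were higher and lower), with a median log2 ratio of 0.65 where that of all genes with a mean of 10 or more was 0.00. Shmt1, the cytosolic enzyme that makes glycine from serine, had values of 848 (GFP), 233 (MHC) and 189 (NEG) and was 3.64-fold (3.15 to 4.23) higher in GFP than MHC. Ahcy clears the by-product that inhibits methyl transfer and had values of 4902.1 (GFP), 1930.6 (MHC) and 1922.7 (NEG). Mat1a, which makes the methyl donor in liver, was 4.38-fold (1.91 to 11.7) higher at the low value of 31.1 in GFP, against 7.09 in MHC. The others higher in GFP, named after their values were seen, were Asl, the last enzyme of arginine synthesis, at 2.16-fold, and the methyltransferase gene Pemt at 2.59-fold.

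The lower genes of that list were Shmt2, Gnmt and Arg2, the last named after its values were seen. Shmt2, the mitochondrial counterpart of Shmt1, had values of 620 (GFP), 1941.7 (MHC) and 3797.9 (NEG). Oat, which acts on ornithine, and Mat2a, which makes the methyl donor outside liver, had the highest means and lay within 2-fold in every pair. Between GFP and NEG the counts were the same, 5 higher, 3 lower and 5 within 2-fold (median 0.46, 0.01 for all genes). Of all genes, 14.1% were called higher and 15.0% lower in that comparison. There Ass1, the enzyme gene before Asl, joined the higher genes at 2.49-fold (2.33 to 2.67) and Pemt left them. Between MHC and NEG none of the 13 was called in either direction (median 0.24), where 10.6% of all genes were called. Shmt1, Shmt2, Gnmt, Arg2 and Oat share their span with genes that have at least 25% of their reads and are uncertain.

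Among the other adenylate kinase genes, 7 of 8 were in the table and Ak6 was not analysed here. Ak4, a mitochondrial matrix form, had values of 602 (GFP), 2301.3 (MHC) and 2637.7 (NEG) and was 3.82-fold (3.50 to 4.17) lower in GFP than MHC. It was the one member of this list called in any comparison. Over all genes, 31.9% (GFP against MHC), 29.1% (GFP against NEG) and 10.6% (MHC against NEG) were called. The matrix form Ak3 was within 2-fold throughout and had values of 3704.7 (GFP), 4395.0 (MHC) and 3987.6 (NEG). The medians of the list were 0.48 for GFP over MHC, -0.05 for GFP over NEG and -0.02 for MHC over NEG.

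Of 7 genes for mitochondrial exchange of ADP, ATP and phosphate, 6 were measured. None was called between GFP and MHC or between GFP and NEG, where 31.9% and 29.1% of all genes were called. Slc25a4, the heart and muscle ADP/ATP carrier gene, had values of 21590.2 (GFP), 41576.7 (MHC) and 19899.8 (NEG), and was 2.09-fold (2.05 to 2.13) higher in MHC than NEG. The phosphate carrier gene Slc25a3 and the outer membrane channel gene Vdac1 were within 2-fold in all 3 pairs.

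ATP-consuming enzymes of muscle, a list of 11, were called in both directions. Between GFP and MHC, 2 were higher and 4 lower (median -0.10, 0.00 for all genes), where 15.6% of all genes were higher and 16.4% lower, so that 2 of 11 is near the share of all genes. Atp2a2, the calcium pump gene of the sarcoplasmic reticulum, had values of 12890.1 (GFP), 52284.1 (MHC) and 12091.7 (NEG), an order in which MHC alone stood high. Of the cardiac myosin genes, the promoter of Myh6 drove the sort reporter, and Myh7 was 22.3-fold lower in GFP than MHC and is uncertain by overlap. Atp2a3, another calcium pump gene of that family, was 2.11-fold higher in GFP than MHC.

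**Figure D5:**
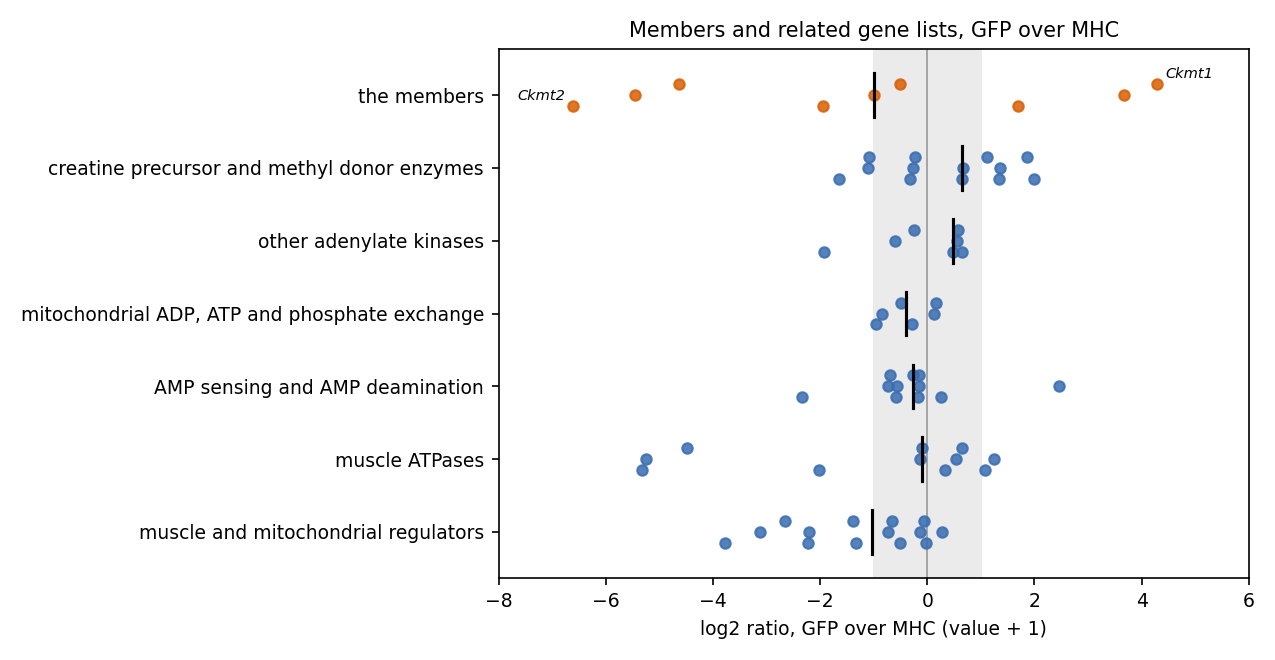
Log2 ratio of GFP over MHC for the 9 members (orange) and for measured genes of 6 related lists (blue), 1 point per gene; black lines are medians, the grey band spans 2-fold in either direction and the outermost members are named. The members reach from -6.61 (Ckmt2) to 4.28 (Ckmt1), whereas all 6 mitochondrial exchange genes lie inside the band. Of all genes with a value of 20 or more in either library, 31.9% were called.

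For each member, the 3 protein-coding genes with the nearest pair of log2 ratios (GFP over MHC and MHC over NEG) were found among 9598 genes (9599 for Ckm) with a mean of 100 or more and little overlap. Over 3 libraries such likeness is a description. Nearest to Ckm were the tubulin gene Tuba8 (distance 0.25), the ventricular light chain gene Myl3 (0.59) and Fbxo40 (0.64), and nearest to Mb were Myoz2 (0.47), Tuba8 (0.66) and Fbxo40 (0.86). Nearest to Ckmt2 were Zfp42 (0.41), known as a pluripotency marker, Myh6 (1.30) and Mb (1.47). Zfp42 had values of 7.31 (GFP), 709 (MHC) and 11.3 (NEG), and the source of its reads in MHC was not tested. The likeness to Myh6 is tied to the sort, since the promoter of Myh6 drove the mCherry reporter. Nearest to Ckmt1 were Col14a1 (0.09), Tmem8 (0.13) and 9930013L23Rik (0.25), and nearest to Gatm were Cdc42ep2 and Vtcn1 (0.06 each) and Npas4 (0.10). Gamt lay nearest to Ddit4l (0.06), Slc6a8 to Fabp4 (0.01), Ckb to Smad9 (0.02) and Ak1 to Erlec1 (0.01).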

How the data were processed

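RNA of 3 sorted populations, 1 library each, was sequenced, per the labels' protocols. The submitters' processing notes name DESeq2 1.2.10, bedtools 2.17.0, STAR 2.3.0e, FastQC 0.11.2 and the build mm10, without saying what each did. Values deposited by the authors are a normalised signal: reads of a gene over the size factor of its library. Dividing by the smallest value above 0 gave whole reads (tolerance 0.01) for 100% of values, with 1 read worth 0.914 (GFP), 1.01 (MHC) and 1.13 (NEG). With 1 library per population no residual degrees of freedom remain, so no count model was run and no gene is called by one. Intervals are Clopper-Pearson on recovered reads (scipy 1.17.1). They cover counting error only, since no molecular identifiers were counted.

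Log2 ratios use a pseudocount of 1, which understates low genes. Lengths came from GENCODE M21, merged exons within the table's span. A gene is uncertain where an overlapping gene has 25% or more of its mean. The members, lists and motifs were chosen with earlier results of these data known. Named genes are all members, for each related list the 3 highest means plus, among called genes, the 2 most extreme ratios either way, and 3 nearest patterns per member; some genes that meet the rule are not reported here. Alternatives were another pseudocount, 2 scalings (total reads, TMM of edgeR 4.0.16), value minimums, fold limits, overlap and length. Ratios were tested on simulated data.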

Additional observations from a re-analysis of the deposited data

How the results depend on the processing

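The length used decides which gene leads in the cytosolic pair in MHC and in the mitochondrial pair in NEG (values below), and taking all Eng reads off Ak1, an outer limit, turns its ratio of GFP over MHC to 1.06. Of 237 recomputed log2 ratios of members, 229 stayed within their counting interval. Most could not move, since fold limits, value minimums and leaving out overlapped members do not change a ratio. The pseudocount of 10 and TMM scaling kept all 27 ratios each within their interval. Total-read scaling moved 6 and kept 21, and taking antisense reads off moved 2, both of Ckm. Scaling by total reads moved the median of all genes by 0.17 for both GFP comparisons, and Ckb, Slc6a8 and Ak1 moved by about as much (Ckb -0.83, Slc6a8 -1.77 and Ak1 -0.34 for GFP over MHC). TMM scaling put Ckb past 2-fold, making 5 lower members between GFP and MHC. Between GFP and NEG, the 2 lower members became 1 (Slc6a8) at a pseudocount of 10, under total-read scaling and at a minimum of 100, 5 at 1.5-fold and 0 at 3-fold. Between MHC and NEG, the 1 lower member became 2 at 1.5-fold and 0 at 3-fold. Over whole gene spans, the Ckm share of the cytosolic pair was 1.95% (GFP), 20.1% (MHC) and 1.26% (NEG), and the Ckmt2 share of the mitochondrial pair 1.64% (GFP), 97.3% (MHC) and 28.0% (NEG). With the longest coding transcript, chosen after seeing the data, Ckm was 3.62%, 32.2% and 2.35% in GFP, MHC and NEG. Part of that Ckm transcript lies outside the table's span. Taking antisense reads off, also chosen after seeing the data, moved Ckm to -5.16 for GFP over MHC and -0.89 for GFP over NEG. No paired analysis was possible because each population has 1 library. Depth limits Ckmt2 in GFP (21 reads) and Ckmt1 in MHC (14 reads).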

Other observations

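Regulators of muscle and mitochondrial genes, a list of 19 with 14 measured, had no member called higher in GFP than MHC and 7 called lower (median log2 ratio -1.04, 0.00 for all genes), where 15.6% of all genes were higher and 16.4% lower. Ppargc1a, a coactivator of mitochondrial genes, had values of 98.7 (GFP), 873 (MHC) and 210 (NEG). It was 8.84-fold (7.23 to 10.9) lower in GFP than MHC and 4.16-fold (3.54 to 4.90) higher in MHC than NEG. Esrrg, a nuclear receptor that works with it, had values of 44.8 (GFP), 213 (MHC) and 38.4 (NEG). Mef2c, a muscle transcription factor gene, was highest in NEG, at 1093.2 (GFP), 5042.2 (MHC) and 10718.1 (NEG), so it did not share the order of Ckm. Mef2a and Mef2d were within 2-fold in every pair. Myod1, Myog, Myf5 and Myf6, the skeletal muscle regulators, had at most 8 reads in any library.

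Genes that sense or remove AMP, a list of 11, were mostly within 2-fold between GFP and MHC (9 of 11, median -0.26). Of the rest, 1 was higher and 1 lower, where 15.6% of all genes were called higher and 16.4% lower. Prkaa2, the AMP kinase catalytic subunit gene of heart and skeletal muscle, had values of 463 (GFP), 2340.8 (MHC) and 1107.1 (NEG), and was 5.05-fold (4.59 to 5.57) lower in GFP than MHC. Prkag3, a regulatory subunit gene known from skeletal muscle, was 5.83-fold (3.23 to 11.4) higher in GFP than MHC at low values of 76.8 (GFP), 13.2 (MHC) and 13.6 (NEG). Stk11, Prkab2 and Prkag1, the members with the highest means, were within 2-fold in every pair. Of 9 other globin genes, Cygb and Ngb were measured. Cygb had values of 605 (GFP), 891 (MHC) and 1339.8 (NEG), and Ngb was 5.26-fold lower in GFP than MHC, and neither was highest in MHC.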
